A study of Mus musculus with 24 samples.

Results

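Splenic B cells and the splenic cells that are not B cells were compared 4 h after mice received 7 Gy of ionizing radiation (IR), to see which genes of the DNA damage response end at different levels in the 2 fractions. The comparison took the 4 irradiated wild-type B cell samples and the 4 irradiated wild-type non-B samples, 8 of the 24 RNA-Seq samples of the series, by their labels alone. The samples came from C57/Bl6 mice of 8 weeks of age. They are Trp53+/+ (wild-type) or Trp53-/- and either unstressed or taken 4 h after 7 Gy, with 4 Trp53+/+ and 2 Trp53-/- samples for each fraction and treatment. B cells were those held on a magnetic column by beads against B220, a surface antigen of B cells, and non-B cells were the flow-through of the column, so that the second fraction holds several cell types and whatever B cells the column let pass. RNA was depleted of ribosomal RNA and sequenced without strand information. The study's methods name 4 wild-type and 2 Trp53-/- mice per condition, as many as the samples of each group. SDs and p-values measure the spread between these samples, which the labels do not assign to single mice.

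p53, encoded by Trp53, is a transcription factor that double-strand breaks activate through the kinases Atm and Chek2. It switches on genes that halt the cell cycle, repair DNA, buffer oxidative and metabolic stress or kill the cell, and it switches on its own inhibitor Mdm2, which limits the response. Lymphocytes of the spleen are among the cells that die most readily by p53-driven apoptosis after irradiation.

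The identity of the fractions was checked with marker genes. All 12 B cell markers (among them Cd79a, Ms4a1 and Pax5) were higher in every irradiated B cell sample than in every non-B sample, with a summed level of 1277 to 1506 RPKM (reads per kb of exon, scaled to all reads on exons of the library) against 371 to 673 RPKM. The non-B fraction thus still held B cell markers, at 0.392 of the level of the B fraction. All 12 T cell markers were higher in every non-B sample (summed level 428 to 571 against 64.1 to 115 RPKM), as were the 9 markers of NK cells, the 9 of neutrophils and the 7 of megakaryocytes and platelets (exact permutation test of each sum, two-sided, p = 0.029, the smallest that 4 against 4 samples allow). Erythroid markers summed to 74.5 to 80.0 RPKM in B and 56.6 to 150.4 RPKM in non-B samples (exact permutation p = 0.886) and plasma cell markers to 237 to 306 and 163 to 244 RPKM (exact permutation p = 0.086). Macrophage markers did not separate the fractions (summed level 537 to 801 in B and 573 to 794 RPKM in non-B samples, exact permutation p = 0.8). The B fraction thus held markers of other cells too, and values given for B cells below are those of this fraction. No marker of any of the 9 lists was at 0 in all 8 samples. In a bulk fraction fewer cells of a type and less RNA per cell cannot be told apart, and this holds for every difference below. Values given with ± are the mean and SD over 4 samples, with the B cell group first, and a signed number after a pair of RPKM means is the log2 difference, B minus non-B.

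**Figure D1:**
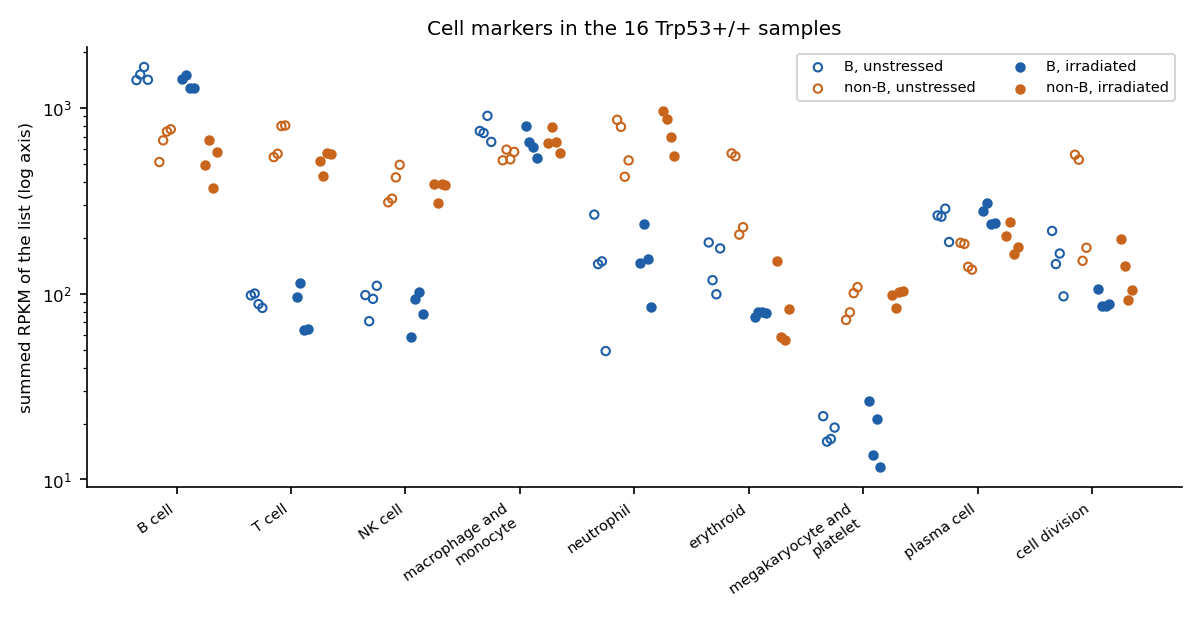
Summed RPKM (log axis) of each list of cell markers in the 16 Trp53+/+ samples, 1 point per sample, open for unstressed and filled for irradiated, blue for B and orange for non-B. B cell markers are higher in the B fraction and T cell, NK cell, neutrophil and megakaryocyte markers in the non-B fraction in both conditions, while the erythroid and cell-division sums of 2 unstressed non-B samples stand above all others.

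The 8 libraries were not of equal quality. Their depth, estimated from the steps between the lowest values, was 4.79 to 7.74 M (mega) reads in the B and 7.09 to 10.27 M reads in the non-B group. Olfactory and vomeronasal receptor genes, which spleen cells should lack, were above 0 for between 7.0% and 51.35% of 1443 genes in these 8 libraries, against 5.41% to 13.1% in the other 16. Their share reached 20% in B samples 1 and 2 and non-B samples 1, 3 and 4, and it did not separate the fractions (exact permutation p = 0.8). Since 1 read was kept per set of duplicates, the highest value of a library corresponded to only 1472 to 1757 reads per kb of a possible 2000. Above 1000 reads per kb lay 4 damage-response genes, Ccng1, Trp53inp1, Mcl1 and Dcxr.

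Of 263 damage-response genes in 13 lists, 262 had values and 252 passed the filter (RPKM above 1 in at least 1 of the 8 samples). Of these 252, 54 were higher in B and 28 in non-B cells, at a limma adjusted p under 0.05 and an absolute log2 difference above 0.58 (called hereafter). Over all 14376 genes tested, 15.2% were called higher in B and 20.4% higher in non-B cells (35.6% in either direction), against 21.4% and 11.1% of the damage-response genes. The median log2 difference (B minus non-B) was 0.26 for the damage-response genes and 0.08 for all genes. A further 77 damage-response genes passed the adjusted p alone, 63 of them higher in B cells, where 3027 of all genes did so, 2097 of them higher in B cells. In 107 of the 252 genes every B cell sample lay above every non-B sample and in 38 every non-B sample lay above, where 27.1% and 24.8% of all genes were separated in these ways. Without the libraries at 20% or more of receptor genes, which leaves 2 B and 1 non-B sample, 66 genes were called higher in B and 24 in non-B cells. With the 2 libraries of each group lowest in receptor genes the counts were 77 and 31. Of the genes named by rule, Bcl2a1d, Bid, Cycs, Dclre1c, Ddb2 and Dntt fell under the limit in the first of these sets, while Brca2, Casp6 (-0.74) and Cdkn2b (0.91) kept a difference beyond it and missed only the adjusted p. In the second, Dclre1c, Ddb2 and Dntt fell under the limit and Bcl2a1d (0.87) missed only the adjusted p. By count, base excision and mismatch repair was the list with the most B-high genes (11 of 28 higher in B, 1 in non-B). Stress and metabolic targets (9 of 30 and 2) and sensors and checkpoint kinases (7 of 25 and 1) followed. Death receptors (2 of 15 and 6) and growth arrest (3 of 19 and 5) held the most non-B-high genes by count. The lists differ in size. As a share of its list, the pro-apoptotic Bcl2 family (1 of 11 and 4) exceeded growth arrest toward non-B cells. The small anti-apoptotic Bcl2 family (2 of 7 and 0) slightly exceeded sensors and checkpoint kinases toward B cells. Its 2 calls were the near-identical copies Bcl2a1b and Bcl2a1d, which share reads. Its median difference was -0.08, with 2 of 7 genes above 0, against 0.46 and 21 of 25 for sensors and checkpoint kinases.

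**Figure D2:**
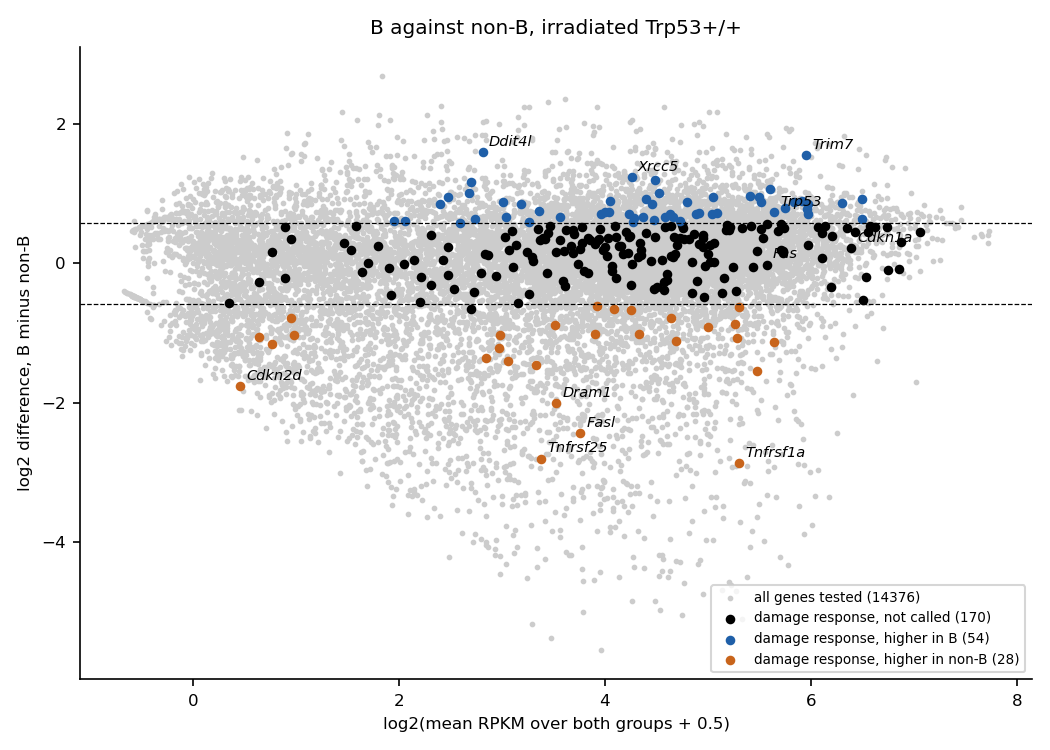
Log2 difference (B minus non-B) of the 14376 genes tested against the log2 of the mean RPKM over both groups + 0.5, irradiated Trp53+/+ samples, with damage-response genes coloured by call and the 0.58 limits dashed. Called damage-response genes reach 1.59 toward B (Ddit4l) and -2.87 toward non-B (Tnfrsf1a), and most lie near or inside the limits.

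Trp53 itself was among the genes that ended higher in B cells. Trp53 (chromosome 11, 69393861 to 69405375 of NCBIM37, which mm9 represents) measured 58.7, 65.8, 59.6 and 63.0 RPKM in the B cell samples and 36.1, 37.9, 35.02 and 38.6 in the non-B samples. The groups did not overlap and differed 1.67-fold (log2 difference 0.73 ± 0.072 SE, limma adjusted p = 1.02e-05). Of the 14 genes tested in the list of p53 and its feedback regulators, 2 were called, both higher in B cells. This was 14.3%, near the 15.2% of all genes called higher in B cells. Another 9 passed the adjusted p with a smaller difference, 8 of them toward B cells. Of all 14376 genes 3027 did so, 2097 of them toward B cells. The second called gene was Trp53rk, a kinase that phosphorylates p53 (8.05 ± 0.891 against 3.77 ± 0.599 RPKM, SD, n = 4, log2 difference 1.01 ± 0.15 SE, limma adjusted p = 2.17e-04). Mdm2, the ubiquitin ligase that degrades p53, was at 96.7, 106, 98.2 and 95.0 RPKM in the B cell samples and 73.4, 73.3, 73.3 and 70.8 in the non-B samples. Every B cell sample lay above every non-B sample, but the difference stayed under the limit (log2 difference 0.44 ± 0.067 SE, limma adjusted p = 2.27e-04). Its partner Mdm4 (126 against 87.0 RPKM, 0.52), the phosphatase Ppm1d (46.6 against 32.9 RPKM, 0.50), which resets the response, and the p53 target Ccng1 (154 against 112 RPKM, 0.45) lay as close, with limma adjusted p-values of 2.03e-04, 2.60e-04 and 0.00118. Zmat3, a p53-induced RNA-binding protein, was at 41.4 ± 3.53 against 29.8 ± 3.16 RPKM (log2 difference 0.47 ± 0.10 SE, limma adjusted p = 0.0017), and its difference passed the limit with the 2 libraries of each group lowest in receptor genes (0.70). Trp53inp1, which promotes p53 phosphorylation, was 129 ± 8.19 against 105 ± 10.9 RPKM (log2 difference 0.30 ± 0.09 SE, limma adjusted p = 0.0144), and after quantile normalization its difference was -0.0066.

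The growth-arrest genes divided, with 3 of 19 called higher in B (15.8%) and 5 in non-B cells (26.3%). Over all genes these shares were 15.2% and 20.4%. Cdkn1a, which encodes the cyclin-dependent kinase inhibitor p21 and is the best-known p53 target, ended without a called difference. It measured 82.3, 83.5, 94.2 and 97.8 RPKM in the B cell samples and 75.6, 88.3, 75.7 and 69.6 in the non-B samples, and the groups overlapped (log2 difference 0.21 ± 0.093 SE, limma adjusted p = 0.073). RefSeq gives Cdkn1a 2 promoters, and the 1 that holds the following letters is shown. It has, just before its transcription start, the letters CATG 2 times with 6 bases between, as the cores of adjacent p53 binding elements are spaced. The match is a description and not a measured binding site. The RefSeq sequence (GRCm38.p6, + strand, chr17:29090891-29090970, 5′ to 3′) has these letters in capitals, from base -48 to base -35 relative to the start.
Cdkn1a: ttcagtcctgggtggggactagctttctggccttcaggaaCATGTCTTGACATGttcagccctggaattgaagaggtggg
The pair of CATG with any 6 bases between, which reads the same on both strands, was searched on both, from 250 bases before to 50 after each start. It occurred in a promoter of 225 of 27025 genes (0.833%) and of 2 of the 205 damage-response genes tested that had a sequence (0.976%), a share near that of all genes. The second was Dntt.

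Plk2, a kinase that p53 induces, had the largest difference toward B cells of the growth-arrest genes, at 92.7, 104, 106 and 102 RPKM in the B cell samples and 52.0, 57.8, 54.5 and 56.4 in the non-B samples. The groups did not overlap and differed 1.83-fold (log2 difference 0.87 ± 0.073 SE, limma adjusted p = 4.11e-06). Cdkn2b, the inhibitor p15, was 1.93-fold higher in B cells (6.29 against 3.25 RPKM, log2 difference 0.85 ± 0.18 SE, limma adjusted p = 0.00247), and Gtse1, a p53-induced regulator of p53 in G2, was called higher in B cells too (77.5 against 47.4 RPKM). Other inhibitors of these kinases went the other way. Cdkn1b, which encodes p27 and holds lymphocytes in quiescence, was at 25.1, 23.0, 24.3 and 25.9 RPKM in the B cell samples and 50.8, 56.9, 54.0 and 47.4 in the non-B samples, with all non-B samples above all B samples and 2.13-fold higher (log2 difference -1.07 ± 0.08 SE, limma adjusted p = 2.11e-06). Cdkn2d, the inhibitor p19, was near the detection limit in B cells (0, 0.079, 0.210 and 0.195 RPKM) and at 1.89, 1.81, 1.77 and 1.03 RPKM in non-B cells (log2 difference -1.77 ± 0.24 SE, limma adjusted p = 9.80e-05). Gadd45a, a stress sensor that p53 induces (21.6 against 41.4 RPKM, -0.92), the antiproliferative gene Tob1 (17.7 against 31.2 RPKM, -0.78) and the kinase Plk3 (11.4 against 18.0 RPKM, -0.61) were also called higher in non-B cells. Btg2, an antiproliferative p53 target, was 103 ± 6.25 against 111 ± 14.5 RPKM (log2 difference -0.10 ± 0.10 SE, limma adjusted p = 0.413), with overlapping groups, and Ei24, another p53 target, was 95.4 ± 7.32 against 67.2 ± 3.46 RPKM (log2 difference 0.50 ± 0.078 SE, limma adjusted p = 2.79e-04).

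**Figure D3:**
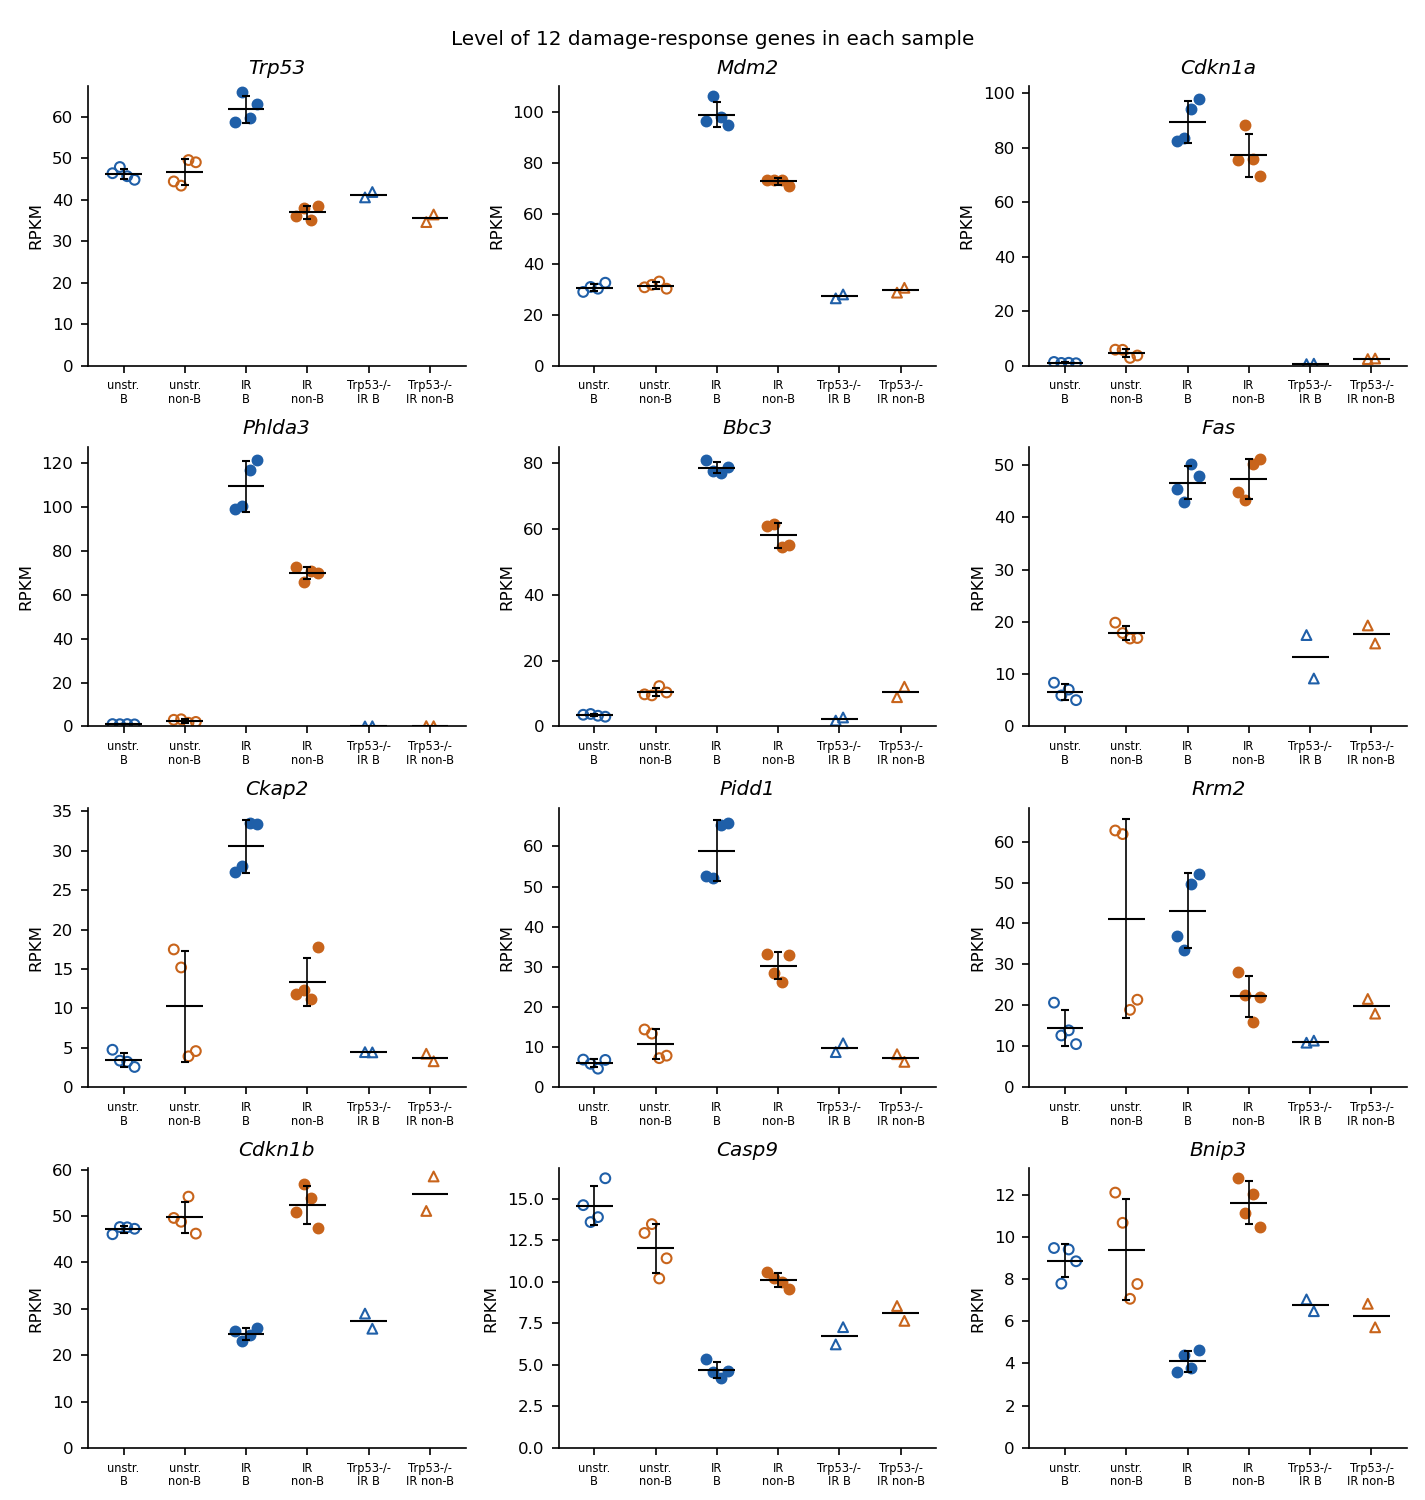
RPKM of 12 damage-response genes in each sample of 6 groups: Trp53+/+ unstressed (open circles), Trp53+/+ irradiated (filled circles) and Trp53-/- irradiated (triangles), blue for B and orange for non-B, with the mean as a line and the SD as a bar for groups of 4. Cdkn1a and Fas overlap between the irradiated Trp53+/+ fractions, Trp53, Mdm2, Phlda3, Bbc3, Ckap2, Pidd1 and Rrm2 are higher in B, and Cdkn1b, Casp9 and Bnip3 are higher in non-B cells.

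Among the pro-apoptotic members of the Bcl2 family, the classical p53 targets ended close together and slightly higher in B cells. The size of this lean depended on the processing. Over the alternatives tried, the log2 difference was 0.28 to 0.47 for Bbc3, 0.28 to 0.57 for Bax and 0.08 to 0.34 for Pmaip1. Bbc3 (Puma), a BH3-only protein required for radiation death of lymphocytes, was at 81.0, 77.6, 77.1 and 78.9 RPKM in the B cell samples and 60.9, 61.6, 54.5 and 55.1 in the non-B samples. The groups did not overlap, yet the difference stayed under the limit (log2 difference 0.44 ± 0.071 SE, limma adjusted p = 3.50e-04). Bax, the pore former, was 112 ± 4.99 against 77.1 ± 2.75 RPKM (log2 difference 0.54 ± 0.068 SE, limma adjusted p = 6.55e-05), and Pmaip1 (Noxa), another BH3-only protein, was 67.7 ± 3.55 against 56.6 ± 6.96 RPKM with overlapping groups (log2 difference 0.26 ± 0.092 SE, limma adjusted p = 0.0307). Only Bid, which links death receptors to mitochondria, was called higher in B cells (41.7 against 25.4 RPKM, log2 difference 0.71 ± 0.10 SE, limma adjusted p = 1.18e-04), and 4 members were called higher in non-B cells. Bnip3, a mitophagy receptor, was at 3.59, 4.38, 3.79 and 4.62 RPKM in the B cell samples and 12.8, 11.1, 12.04 and 10.5 in the non-B samples, 2.83-fold higher in non-B cells (log2 difference -1.399 ± 0.13 SE, limma adjusted p = 7.59e-06). Bmf, a BH3-only protein, was 2.11-fold higher in non-B cells (9.27 against 19.6 RPKM, log2 difference -1.02 ± 0.18 SE, limma adjusted p = 5.45e-04), and Bnip3l (26.7 against 48.9 RPKM, -0.87) and the low Bik (0.922 against 1.95 RPKM, -0.78) were the other 2. Of the anti-apoptotic members, Bcl2 was not called (41.9 ± 1.56 against 43.6 ± 3.61 RPKM, log2 difference -0.053 ± 0.079 SE, limma adjusted p = 0.586). Bcl2a1b (58.7 against 32.0 RPKM, 0.87) and Bcl2a1d (19.9 against 12.1 RPKM, 0.74) were called higher in B cells, but these near-identical copies share reads and their separate values are uncertain.

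The list of death receptors and ligands held the largest differences of the 252 genes, toward non-B cells. Fas, the p53-induced death receptor, was not among them, at 45.4, 43.0, 50.2 and 48.0 RPKM in the B cell samples and 44.8, 43.4, 50.2 and 51.1 in the non-B samples. The groups overlapped (log2 difference -0.021 ± 0.083 SE, limma adjusted p = 0.843). Its ligand Fasl, made by cytotoxic T and NK cells, was 5.88-fold higher in non-B cells, at 2.34, 3.87, 5.59 and 3.39 RPKM in B and 20.7, 16.6, 26.0 and 26.0 RPKM in non-B samples (log2 difference -2.44 ± 0.22 SE, limma adjusted p = 7.28e-06). Tnfrsf1a, the main TNF receptor, was at 11.3, 10.2, 8.18 and 6.40 RPKM in B and 84.7, 72.9, 70.8 and 47.6 RPKM in non-B samples, 7.65-fold apart (log2 difference -2.87 ± 0.19 SE, limma adjusted p = 1.10e-06). Tnfrsf25, a receptor of T cells, followed (2.28 against 17.5 RPKM, -2.80), with Tnfrsf1b (22.2 against 66.1 RPKM, -1.54), Tnfsf10, the ligand TRAIL (4.18 against 10.5 RPKM, -1.21), and Tnfrsf21 (12.8 against 26.5 RPKM, -1.02), all called higher in non-B cells. The summed T cell, NK cell and neutrophil markers moved the same way. Their medians were 544, 386 and 783 RPKM in non-B against 80.0, 85.6 and 149 RPKM in B samples. Megakaryocyte and platelet markers did so too (101 against 17.3 RPKM). The part of these cell types in the differences was not tested. In the opposite direction, 2 p53 targets of this list were higher in B cells. Pidd1, a death-domain protein of the caspase-2 platform, was 59.0 ± 7.64 against 30.3 ± 3.43 RPKM (log2 difference 0.95 ± 0.11 SE, limma adjusted p = 3.62e-05), and Tnfrsf10b, the TRAIL receptor, was 40.1 ± 3.00 against 24.5 ± 2.75 RPKM (log2 difference 0.70 ± 0.10 SE, limma adjusted p = 1.07e-04).

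Downstream of mitochondria, Apaf1, the scaffold of the apoptosome, was not called (55.7 ± 3.66 against 49.3 ± 4.81 RPKM, log2 difference 0.18 ± 0.087 SE, limma adjusted p = 0.103), and Cycs, cytochrome c, was higher in B cells (31.6 ± 1.16 against 20.6 ± 1.73 RPKM, log2 difference 0.61 ± 0.083 SE, limma adjusted p = 1.14e-04), a call that ended without non-B sample 1 (0.55). The initiator Casp9 was at 5.35, 4.56, 4.19 and 4.62 RPKM in the B cell samples and 10.6, 10.2, 9.98 and 9.56 in the non-B samples. It was 2.16-fold higher in non-B cells, without overlap (log2 difference -1.04 ± 0.12 SE, limma adjusted p = 3.49e-05), and the executioner Casp6 was 1.90-fold higher (7.56 against 14.4 RPKM, log2 difference -0.89 ± 0.13 SE, limma adjusted p = 1.70e-04). The other 14 of the 17 genes of this list, Casp8 among them, were not called. The p53-induced nuclease Aen was 116 ± 3.38 against 80.4 ± 1.83 RPKM (log2 difference 0.53 ± 0.064 SE, limma adjusted p = 5.00e-05), and every B cell sample lay above every non-B sample.

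Of 30 stress and metabolic p53 targets, 9 were higher in B and 2 in non-B cells. Ddit4l, a stress-induced relative of the mTOR inhibitor Ddit4, showed the largest difference of any damage-response gene toward B cells, at 9.33, 8.03, 12.6 and 10.4 RPKM in the B cell samples and 2.97, 3.10, 2.52 and 3.32 in the non-B samples. It was 3.39-fold higher in B cells (log2 difference 1.59 ± 0.16 SE, limma adjusted p = 1.30e-05). Trim7, a ubiquitin ligase, was at 88.9, 87.6, 88.9 and 98.8 RPKM in the B cell samples and 28.5, 37.6, 21.2 and 39.5 in the non-B samples, 2.88-fold higher (log2 difference 1.55 ± 0.17 SE, limma adjusted p = 1.96e-05). Phlda3, a p53 target that restrains Akt, was at 98.9, 100.3, 117 and 121 RPKM in the B cell samples and 72.6, 65.8, 71.0 and 70.1 in the non-B samples, and its groups did not overlap (log2 difference 0.64 ± 0.086 SE, limma adjusted p = 9.69e-05), although after quantile normalization it was no longer called (0.43). Ckap2 (30.6 against 13.3 RPKM, 1.19), Dcxr (117 against 61.6 RPKM, 0.93), Rps27l (78.0 against 41.4 RPKM, 0.89), the thiamine transporter Slc19a2 (73.7 against 39.7 RPKM, 0.88), the costimulatory molecule Cd80 (67.5 against 38.8 RPKM, 0.79) and Ephx1 (78.4 against 45.7 RPKM, 0.78) completed the 9. Sesn2, a sestrin that dampens mTOR, was 50.3 ± 5.23 against 34.5 ± 1.25 RPKM, below the limit (log2 difference 0.53 ± 0.086 SE, limma adjusted p = 3.58e-04), and above it with the 2 libraries of each group lowest in receptor genes (0.67). Dram1, which links p53 to autophagy, was higher in non-B cells, at 6.44, 2.88, 4.73 and 2.70 RPKM in B and 21.2, 21.2, 16.04 and 12.8 RPKM in non-B samples (log2 difference -2.01 ± 0.25 SE, limma adjusted p = 6.35e-05), and Perp, a membrane p53 target, was near 1 RPKM (0.555 against 1.85 RPKM, log2 difference -1.15 ± 0.20 SE, limma adjusted p = 5.39e-04).

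Among 25 damage sensors and checkpoint genes, 7 were called higher in B and 1 in non-B cells. Wee1, which holds Cdk1 inactive, was 8.46 ± 1.89 against 3.51 ± 0.865 RPKM (log2 difference 1.16 ± 0.20 SE, limma adjusted p = 6.28e-04), and Atr, the kinase of stalled replication forks, was 20.9 ± 1.75 against 11.2 ± 2.80 RPKM (log2 difference 0.90 ± 0.16 SE, limma adjusted p = 6.06e-04). Atm, the kinase of double-strand breaks, was at 30.2, 27.3, 32.4 and 31.8 RPKM in the B cell samples and 15.1, 17.9, 19.8 and 24.7 in the non-B samples. The groups did not overlap (log2 difference 0.66 ± 0.13 SE, limma adjusted p = 0.0016), but without non-B sample 1 the difference fell under the limit (0.55). Chek2, Hus1, Rad50 and Mre11a were the others called, between 0.59 and 0.87. Chek1, the S-phase checkpoint kinase, was low in both fractions (1.70 ± 0.225 against 1.03 ± 0.166 RPKM, log2 difference 0.52 ± 0.19 SE, limma adjusted p = 0.0348). The phosphatase Cdc25b, which drives entry into mitosis, was the exception, at 5.93, 4.85, 4.03 and 4.57 RPKM in B and 18.2, 11.5, 14.4 and 12.9 RPKM in non-B samples (log2 difference -1.46 ± 0.16 SE, limma adjusted p = 2.62e-05).

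In double-strand break repair, both subunits of Ku were higher in B cells. Xrcc5 (Ku80) was at 27.6, 26.5, 26.0 and 25.2 RPKM in the B cell samples and 10.04, 10.2, 9.70 and 14.2 in the non-B samples, 2.39-fold apart (log2 difference 1.23 ± 0.12 SE, limma adjusted p = 9.99e-06), and Xrcc6 (Ku70) was 27.1 ± 1.23 against 14.1 ± 1.73 RPKM (log2 difference 0.92 ± 0.10 SE, limma adjusted p = 1.96e-05). Their catalytic partner Prkdc was not called (12.9 against 11.9 RPKM, 0.15). Dclre1c (Artemis), the nuclease that opens hairpin ends, was 1.62-fold higher in non-B cells (14.1 against 22.9 RPKM, log2 difference -0.67 ± 0.11 SE, limma adjusted p = 4.06e-04). Dntt, the polymerase of immature lymphocytes, was 0.683, 0.879, 0.651 and 0.666 RPKM in B and 1.93, 0.727, 2.63 and 3.65 RPKM in non-B samples (log2 difference -1.04 ± 0.33 SE, limma adjusted p = 0.0201), overlapping, and its call ended without non-B sample 3 or 4 (-0.93 and -0.79). Of 31 genes of homologous recombination and the Fanconi pathway, 5 were higher in B (16.1%) and 1 in non-B cells (3.23%). Over all genes tested, 15.2% and 20.4% were called so, and the share toward B cells was near that of all genes. Brca2 was 7.60 ± 0.681 against 4.74 ± 0.688 RPKM (log2 difference 0.63 ± 0.14 SE, limma adjusted p = 0.00292), a call that ended without non-B sample 3 (0.55). Fancf was 9.59 ± 2.85 against 5.81 ± 1.39 RPKM (log2 difference 0.66 ± 0.22 SE, limma adjusted p = 0.0275), and its call ended when any 1 of 5 libraries was left out (0.52 to 0.71). Fanca, of the Fanconi core complex, was 2.90-fold higher in non-B cells (3.44 against 9.97 RPKM, log2 difference -1.37 ± 0.23 SE, limma adjusted p = 5.06e-04).

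In base excision and mismatch repair, 11 of 28 genes were higher in B cells. Apex1, the endonuclease of abasic sites, was at 30.0, 32.3, 28.5 and 30.1 RPKM in the B cell samples and 15.4, 15.7, 13.1 and 15.1 in the non-B samples, 2.04-fold apart without overlap (log2 difference 1.01 ± 0.087 SE, limma adjusted p = 4.77e-06). Parp1, the sensor of single-strand breaks, was 55.6 ± 4.48 against 28.6 ± 4.93 RPKM (log2 difference 0.96 ± 0.12 SE, limma adjusted p = 5.51e-05). Ung, which removes the uracil that antibody diversification leaves in B cell DNA (6.85 against 3.31 RPKM, 0.95), and the mismatch factor Msh6 (80.0 against 44.2 RPKM, 0.85) were among the others. Neil2, a glycosylase near 1 RPKM, was the 1 gene of the list higher in non-B cells (0.517 against 1.60 RPKM, log2 difference -1.06 ± 0.23 SE, limma adjusted p = 0.00249). In nucleotide excision repair, 4 of 22 genes were called higher in B cells (18.2%), near the 15.2% of all genes. Ercc8 (11.1 against 6.06 RPKM, log2 difference 0.84 ± 0.18 SE, limma adjusted p = 0.0024) and Gtf2h4 (19.4 against 11.6 RPKM, log2 difference 0.73 ± 0.11 SE, limma adjusted p = 2.36e-04), a subunit of TFIIH, led these 4. Ddb2, the p53-induced damage recognition factor, was at 13.2, 11.8, 11.5 and 13.9 RPKM in the B cell samples and 19.2, 16.6, 21.2 and 24.6 in the non-B samples and higher in non-B cells (log2 difference -0.66 ± 0.13 SE, limma adjusted p = 0.00105). Its call ended without non-B sample 4 (-0.57) and with the 2 libraries of each group lowest in receptor genes (-0.48).

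The supply of nucleotides differed by enzyme. The thymidine kinase Tk1 was at 65.8, 74.6, 59.1 and 61.2 RPKM in the B cell samples and 31.7, 34.8, 26.5 and 31.5 in the non-B samples, 2.10-fold higher in B cells (log2 difference 1.06 ± 0.10 SE, limma adjusted p = 9.86e-06). Rrm2, the small subunit of ribonucleotide reductase, was 43.1 ± 9.16 against 22.2 ± 4.92 RPKM (log2 difference 0.95 ± 0.18 SE, limma adjusted p = 9.98e-04), and the large subunit Rrm1 was higher in B cells too (27.6 against 15.2 RPKM, 0.84). The p53-induced subunit Rrm2b was not called (13.1 against 14.5 RPKM, -0.14). Samhd1, which degrades nucleotides, was at 34.6, 33.6, 27.7 and 27.5 RPKM in the B cell samples and 73.0, 68.2, 71.6 and 59.9 in the non-B samples, 2.21-fold higher in non-B cells (log2 difference -1.14 ± 0.10 SE, limma adjusted p = 5.95e-06), and Dck, a salvage kinase, was 15.8 ± 2.30 against 34.8 ± 3.56 RPKM (log2 difference -1.12 ± 0.12 SE, limma adjusted p = 2.14e-05). Polk, a translesion polymerase and p53 target, was 62.0 ± 2.69 against 42.0 ± 6.14 RPKM, just under the limit (log2 difference 0.57 ± 0.10 SE, limma adjusted p = 6.71e-04), and above it without non-B sample 4 (0.65). Summed cell-division markers were 85.7 to 106 RPKM in B and 92.9 to 196 RPKM in non-B samples (exact permutation p = 0.086), and their part in the values of these S-phase genes was not tested.

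**Figure D4:**
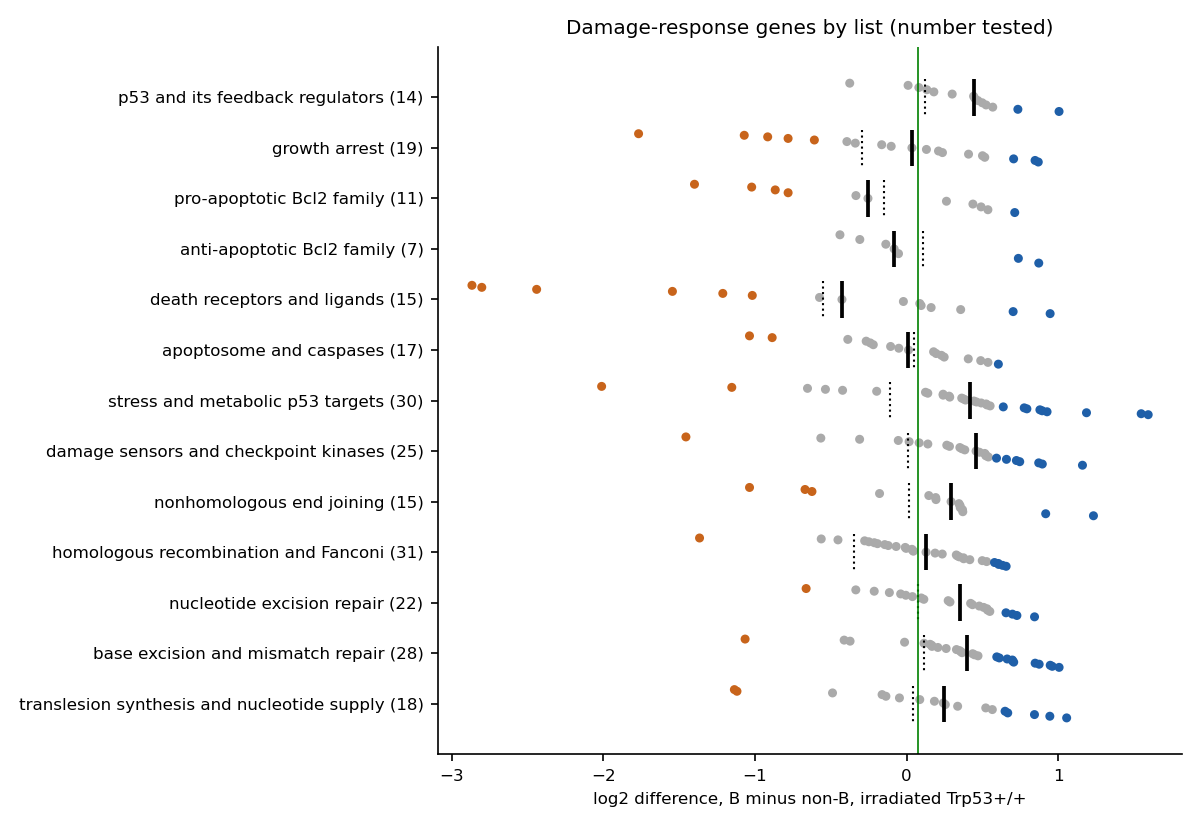
Log2 difference (B minus non-B) of each damage-response gene in irradiated Trp53+/+ samples by list, with genes called higher in B in blue, higher in non-B in orange and not called in grey. Solid black bars mark the median after IR, dotted bars the median in unstressed samples and the green line the median of all genes, and the median of the stress and metabolic targets lies at 0.42 after IR and at -0.11 unstressed.

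The distances after IR were then set beside those in unstressed Trp53+/+ cells, which share no sample with them. In unstressed cells 10 of the 252 genes were called higher in B and 41 in non-B cells, where 7.14% and 16.8% of all genes were called, and the median difference was -0.02. The interaction of fraction and IR, which tests whether the distance changed, was called (limma adjusted p under 0.05) toward B for 77 genes and toward non-B for 24, where 15.3% and 12.6% of all genes were called. Core p53 targets were among the 77. Unstressed Cdkn1a was 1.08 against 4.57 RPKM (log2 difference -1.64), lower in B cells, and after IR the fractions overlapped (interaction 1.85, limma adjusted p = 5.05e-05). Bbc3 went from 3.38 against 10.4 RPKM (-1.49) to a difference of 0.44 (interaction 1.93, limma adjusted p = 3.63e-07). Fas went from 6.59 against 17.9 RPKM (-1.39) to -0.021 (interaction 1.37, limma adjusted p = 2.44e-05), Phlda3 from 1.02 against 2.50 RPKM (-0.95) to 0.64 (interaction 1.59, limma adjusted p = 3.48e-05), and Pmaip1 from 12.3 against 23.6 RPKM (-0.90) to 0.26 (interaction 1.16, limma adjusted p = 2.81e-05). Trp53 was not called in unstressed cells (46.2 against 46.6 RPKM) and then stood at a higher mean in B and a lower mean in non-B cells (interaction 0.75, limma adjusted p = 1.85e-05). Neither was Mdm2 (30.8 against 31.6 RPKM, interaction 0.48, limma adjusted p = 3.44e-04).

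Several genes called higher in non-B cells after IR were not called in unstressed cells. Cdkn1b was 47.1 against 49.7 RPKM in unstressed cells (interaction -0.997, limma adjusted p = 3.77e-06), with the B cell mean after IR far below it and the non-B mean near it. Casp9 (14.6 against 11.999 RPKM, interaction -1.31, limma adjusted p = 1.43e-05), Samhd1 (63.9 against 63.3 RPKM, interaction -1.15, limma adjusted p = 7.30e-06) and Bnip3 (8.87 against 9.39 RPKM, interaction -1.35, limma adjusted p = 2.34e-04) had the same form. For Cdc25b both means were lower after IR than in unstressed cells (33.0 against 31.8 RPKM unstressed, 4.84 against 14.2 RPKM after IR, interaction -1.50, limma adjusted p = 4.96e-05). The differences of Fasl (-2.76 unstressed), Tnfrsf25 (-3.44) and Tnfrsf1b (-1.47) were already present in unstressed cells, and for them no change with IR was called. The same held toward B cells for Trim7 (1.92 unstressed), Ephx1 (0.93), Parp1 (0.81) and Dcxr (0.67). In unstressed and irradiated cells alike, 5 genes were called higher in B and 10 higher in non-B cells. In contrast, 8 genes were called higher in non-B cells before IR and higher in B cells after it, among them Cdkn2b, Gtse1, Pidd1, Phlda3, Ckap2, Ung and Rrm2. The unstressed non-B samples differed among themselves in markers of dividing and erythroid cells. Summed cell-division markers were 560 and 527 RPKM in samples 1 and 2 and 150.4 and 177 RPKM in samples 3 and 4, and erythroid markers were 569 and 549 RPKM against 208 and 228 RPKM. Their part in these differences was not tested. Without samples 1 and 2, the unstressed difference was -0.51 for Rrm2 and -0.28 for Ckap2, against -1.31 and -1.19 with them, while Cdkn1a (-1.26), Bbc3 (-1.60) and Fas (-1.31) stayed below -1 on the log2 scale, and of the 8 genes only Phlda3 was still called higher in unstressed non-B cells (-0.63). Cdkn2b was at -0.67 (limma adjusted p = 0.0696). The interaction was then called for 63 genes toward B and 26 toward non-B, and 77 of the 101 genes kept their call and direction. Of the genes named by rule, Ccng1 (0.38), Chek1 (0.54), Ddb2 (-0.41), Fancf (0.73) and Wee1 (0.77) lost theirs.

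**Figure D5:**
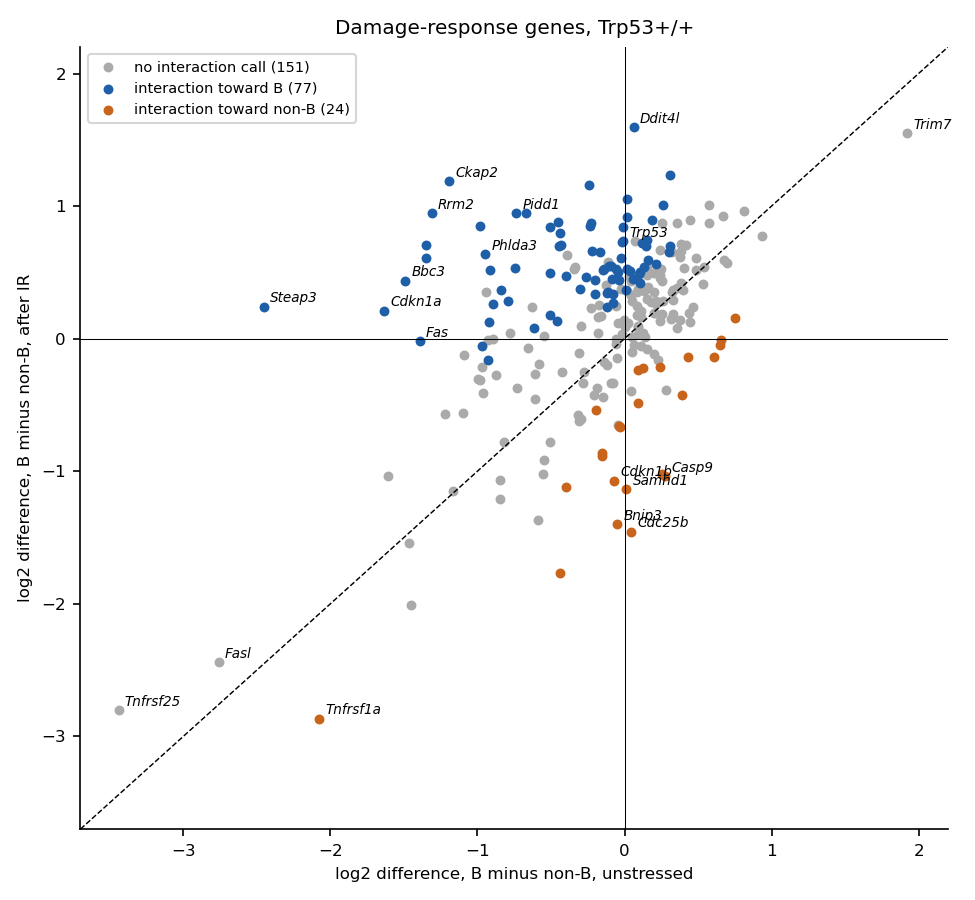
Log2 difference (B minus non-B) after IR against that in unstressed Trp53+/+ cells for 252 damage-response genes, blue and orange where the interaction of fraction and IR was called toward B (77) and toward non-B (24), with the line of equality dashed. Cdkn1a, Bbc3 and Fas move from far left to near or above 0, Cdkn1b, Casp9 and Bnip3 from near 0 to below, and Fasl and Tnfrsf25 stay low in both.

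Irradiated Trp53-/- samples, 2 for each fraction, show the same comparison without functional p53. Trp53 reads were still present, at 40.5 and 41.8 RPKM in the B and 34.6 and 36.4 RPKM in the non-B samples, so the gene-level value does not mark the deletion, and its position in the gene is not given in the sources used here. The p53 target Phlda3 was at 0 and 0.073 RPKM in the B and 0.131 and 0.092 RPKM in the non-B samples, and Cdkn1a at 0.562 and 0.726 RPKM in the B and 2.42 and 2.63 RPKM in the non-B samples, far below the Trp53+/+ levels. Without p53, 32 of the 252 genes were called higher in B and 32 in non-B cells, where 10.4% and 14.5% of all genes were called. The genotype interaction was called toward B for 27 genes and toward non-B for 6, where 1.51% and 1.27% of all genes were called. Of the 27, 11 were stress and metabolic targets and 7 were p53 and its feedback regulators. None was called, in either direction, in sensors and checkpoint kinases, end joining, homologous recombination and Fanconi, or nucleotide excision repair. In that order, the median differences of these lists were 0.46, 0.29, 0.13 and 0.35 in Trp53+/+ and 0.33, 0.11, 0.18 and 0.38 in Trp53-/- cells. Bbc3 was 2.25 against 10.5 RPKM in Trp53-/- cells (-2.005), so that the non-B cells were higher without p53 and the B cells slightly higher with it (genotype interaction 2.44, limma adjusted p = 7.05e-05). Zmat3 (2.12 against 6.27 RPKM, genotype interaction 1.84, limma adjusted p = 5.66e-04), Cdkn1a (0.644 against 2.53 RPKM, genotype interaction 1.62, limma adjusted p = 4.64e-04) and Trp53inp1 (25.8 against 64.0 RPKM, genotype interaction 1.58, limma adjusted p = 4.64e-04) also had lower means in B than in non-B cells without p53. Toward non-B, Bmf was 16.8 against 11.2 RPKM (genotype interaction -1.60, limma adjusted p = 0.0154) and Bnip3 was 6.75 against 6.27 RPKM (genotype interaction -1.50, limma adjusted p = 0.00402). For Cdkn1b no dependence on genotype was called (27.3 against 54.8 RPKM, -0.99, genotype interaction -0.08, limma adjusted p = 0.825), as for Samhd1 (26.8 against 54.0 RPKM, -1.0) and Dck (9.38 against 22.8 RPKM, -1.23). The 33 calls fell to 19 without Trp53-/- non-B sample 2 and to 21 without Trp53-/- B sample 2. With the 3 irradiated Trp53+/+ libraries under 20% of receptor genes none was called by limma (76 at an unadjusted p under 0.05), and with the 2 of each group lowest in them 21 were.

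The 10 damage-response genes that did not reach an RPKM of 1 were Trp63, Trp73, Cdkn2a, Gas1, Rprm, Bok, Hrk, Bcl2a1c, Bcl2l10 and Casp12, with highest values of 0.147 to 0.72 RPKM in the 8 samples. A read on a gene of 2 kb was worth 0.0487 to 0.104 RPKM in these libraries.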

How the data were processed

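RNA-Seq of splenic B and non-B cells was taken from 24 samples, and the comparison used the 8 irradiated Trp53+/+ samples, grouped by their labels. The authors deposited RPKM values for 21671 genes in each sample. By the study's methods, bases under quality 20 were masked, reads were aligned to mm9 with TopHat, 1 read of each set of duplicates was kept, and reads were counted per UCSC gene with featureCounts. The submitters' processing notes name TopHat2 2.0.8 and featureCounts 1.4.5. Duplicate removal limits the level of abundant genes, and without strand, overlapping genes share reads. The study's count test could not be run on RPKM.

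From these values log2(RPKM + 0.5) was fitted with limma 3.58.1 (lmFit, contrasts.fit, eBayes with trend) in R 4.3.3, over 14376 genes, each exceeding an RPKM of 1 in 1 or more of these libraries. p-values were adjusted by Benjamini-Hochberg over all of them. For a call, the adjusted p had to be under 0.05 and the log2 difference beyond 0.58 either way, and differences of low genes are understated by the added 0.5. The interaction with IR used the 16 Trp53+/+ samples and that with genotype the 12 irradiated samples, on the same genes, with an adjusted p under 0.05 alone. Sums per sample were compared with exact permutation tests. Simulated data with 200 changed genes of 14376 (log2 change 1.5 between the irradiated B and non-B groups) gave 199 recovered and 8 false calls. The simulated samples were independent, and low genes were left unchanged. The recovery thus does not carry over to low genes or to differences near 0.58. Depth was estimated from whole-read steps, found for 51.5% to 58.4% of low values within 0.1 of a read, where chance gives 20%, using lengths for 91.1% of genes.

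Damage-response and marker lists were chosen with earlier results of these data known. Genes named by rule were 22 set p53-response genes, the 2 called genes with the largest difference in each direction in each list, and the 3 largest of all genes in each direction, 67 in all. Other members were named after their values were seen, and some genes counted in the lists are not reported here by name. Promoters came from RefSeq (GRCm38.p6). Python 3.11.15, numpy 2.4.6, pandas 2.3.3 and matplotlib 3.10.9 were used. The alternatives tried were the pseudocount, the filter, scaling, thresholds, a replicate block, a receptor-gene covariate, the libraries included and the samples fitted.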

Additional observations from a re-analysis of the deposited data

Results flagged for a closer look

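For 42 of the 61 damage-response genes named by rule, the difference between the fractions in Trp53+/+ cells changed with IR (101 of all 252 tested, and 15.3% of all genes toward B and 12.6% toward non-B). Most of the 61 were named for their difference after IR, which enters this change, so their share is not comparable with that of all genes. On the log2 scale the change toward B cells was 2.26 for Rrm2, 1.93 for Bbc3, 1.85 for Cdkn1a, 1.83 for Cdkn2b, 1.68 for Pidd1, 1.59 for Phlda3, 1.53 for Ddit4l, 1.44 for Chek1, 1.4 for Wee1, 1.37 for Fas, 1.28 for Sesn2, 1.16 for Pmaip1, 1.13 for Tnfrsf10b, 1.04 for Tk1, 0.92 for Xrcc5, 0.90 for Xrcc6, 0.87 for Zmat3, 0.85 for Ercc8, 0.82 for Fancf, 0.75 for Apex1, 0.75 for Trp53, 0.75 for Gtf2h4, 0.69 for Apaf1, 0.63 for Cycs, 0.58 for Aen, 0.55 for Ei24, 0.48 for Mdm2, 0.40 for Ccng1, 0.40 for Bax and 0.35 for Polk (limma adjusted p from 3.63e-07 to 0.044). The change toward non-B cells was -1.50 for Cdc25b, -1.35 for Bnip3, -1.33 for Cdkn2d, -1.31 for Casp9, -1.27 for Bmf, -1.15 for Samhd1, -1.0 for Cdkn1b, -0.79 for Tnfrsf1a, -0.73 for Casp6, -0.72 for Dck, -0.64 for Dclre1c and -0.63 for Ddb2 (limma adjusted p from 3.77e-06 to 0.0245). Without the 2 unstressed non-B libraries highest in cell-division markers, the change was 1.45 for Rrm2, 0.54 for Chek1, 0.77 for Wee1, 0.55 for Tk1 and -0.41 for Ddb2, against 2.04 for Bbc3 and 1.47 for Cdkn1a, and it was no longer called for Chek1, Wee1, Ddb2, Ccng1 and Fancf. The genotype interaction was called for 33 of all 252 tested, and for 1.51% of all genes toward B and 1.27% toward non-B. The difference after IR in Trp53+/+ cells enters it too, so the share of the 61 is again not comparable. For 15 of the 61 genes the difference between the fractions after IR was called as changing with genotype. It lay further toward B cells in Trp53+/+ than in Trp53-/- cells by 2.44 for Bbc3, 1.84 for Zmat3, 1.83 for Ddit4l, 1.74 for Rrm2, 1.62 for Cdkn1a, 1.58 for Trp53inp1, 1.37 for Sesn2, 1.24 for Tnfrsf10b, 1.21 for Pmaip1, 1.02 for Apaf1, 0.83 for Phlda3, 0.56 for Mdm2 and 0.52 for Trp53 on the log2 scale (limma adjusted p from 7.05e-05 to 0.0309). It lay further toward non-B cells by -1.60 for Bmf and -1.50 for Bnip3 (limma adjusted p from 0.00402 to 0.0154).

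Of 134 groups of 4 samples, the B groups of Defb37 and Defb38, at 0 throughout, could not be tested by Dixon's ratio. In 10 of the others 1 sample stood apart, where chance gives about 1 in 20, a rate that does not hold for Defb40 with its tied values at 0. In irradiated Trp53+/+ non-B sample 4 these were Mdm2 at 70.8 RPKM against 73.3 to 73.4 RPKM, Cdkn2d at 1.03 RPKM against 1.77 to 1.89 RPKM, Xrcc5 at 14.2 RPKM against 9.70 to 10.2 RPKM and Dck at 29.5 RPKM against 36.05 to 37.0 RPKM. In irradiated Trp53+/+ B sample 2 these were Bmf at 11.9 RPKM against 8.17 to 8.69 RPKM, Dntt at 0.879 RPKM against 0.651 to 0.683 RPKM, Parp1 at 49.0 RPKM against 56.9 to 58.3 RPKM, Dck at 12.4 RPKM against 16.8 to 17.2 RPKM and Defb40 at 0.836 RPKM where the others are listed at 0. In irradiated Trp53+/+ B sample 4 this was Trim7 at 98.8 RPKM against 87.6 to 88.9 RPKM. B sample 2 was the shallowest library (4.79 M reads) and non-B sample 4 the deepest of the 8 (10.27 M reads). Their part in these values was not tested.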

How the results depend on the processing

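Leaving out 1 of the 8 irradiated libraries gave 1937 to 2453 genes higher in B and 2810 to 2979 in non-B cells (2178 and 2939 with all), and 47 to 64 and 27 to 29 damage-response genes (54 and 28). Without a limit on the log2 difference, 4275 genes and 117 damage-response genes were higher in B cells, and with a limit of 1 these were 614 and 8. Quantile normalization raised the share of calls toward B cells from 42.6% to 55.0% (3045 higher in B, 2488 in non-B), with 68 and 26 damage-response genes. The IR interaction (4015 genes, 101 damage-response genes) ranged from 3446 to 4321 and from 87 to 115 when 1 library was left out. The genotype interaction (400 genes, 33 damage-response genes) was the least stable. It ranged from 79 to 620 genes and from 19 to 41 damage-response genes when 1 library was left out, both lowest without Trp53-/- non-B sample 2 (79 and 19), then non-B sample 3 (142) or Trp53-/- B sample 2 (176 and 21), and highest without non-B sample 4 (620 and 41); a lone sample was assumed to vary like the other groups. Among the 12 libraries, only leaving out B sample 4 or Trp53-/- B sample 1 kept all-gene counts within 1.5 times. It gave 158 genes with no filter on low values, and 9 genes and 0 damage-response genes (2938 and 76 at an unadjusted p under 0.05) with the libraries under 20% of receptor genes, of which only 1 was non-B. With the 2 libraries of each group lowest in receptor genes it gave 21 damage-response genes. That subset, a correction for duplicate removal, the unstressed libraries without those high in cell division, and leaving out unstressed or Trp53-/- samples were chosen after seeing the data. With the replicate block, 2163 genes were higher in B and 2924 in non-B cells and 54 and 28 damage-response genes, with 106 and 29 in the interactions. Same-numbered B and non-B samples correlated in their deviations between -0.1 and 0.29 and 3 of 8 samples correlated best with their own number, so the numbers were not taken to pair samples. These correlations do not show whether B and non-B samples share mice. Both fractions of a spleen come from the same column, so they may, while the main fit treats the groups as independent.

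Of the 67 genes named by rule, 50 were called, 38 of them in every alternative run for them (20 at most), and none of the 50 changed direction. Most of the 67 were named because they were called with the largest differences in the main fit. That choice in part fixes the number of calls and favours a stable direction. These counts therefore do not measure how stable the calls are over all genes. The log2 difference of Fas, which was not called, was 0.18 with the libraries under 20% of receptor genes, 0.15 with the 2 lowest of each group, and -0.062 to 0.017 when 1 library was left out (0.017, 0.0079 and 0.017 without B sample 2, non-B sample 3 or non-B sample 4). The log2 difference of Trp53inp1, also not called, was -0.0066 after quantile normalization. For other p53 targets not called, it ranged over the alternatives from 0.02 to 0.28 for Cdkn1a and from 0.12 to 0.5 for Ccng1. The range was 0.22 to 0.46 for Mdm2 and 0.26 to 0.59 for Aen. The cause of these changes was not tested.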

Other observations

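Over all genes tested, the largest difference toward B cells was that of Mir101b, a microRNA gene, at 3.33, 6.44, 8.58 and 3.99 RPKM in the B and 0, 0, 1.18 and 1.002 RPKM in the non-B samples (log2 difference 2.69 ± 0.45 SE, limma adjusted p = 4.17e-04). For a gene this short a value rests on few reads. Hes5, a transcriptional repressor induced by Notch, followed at 16.9, 13.9, 21.6 and 27.1 RPKM in the B and 3.43, 3.76, 1.79 and 5.27 RPKM in the non-B samples (log2 difference 2.36 ± 0.27 SE, limma adjusted p = 3.50e-05). Vpreb3, a gene of the B lineage, was at 15.3, 14.9, 18.4 and 22.3 and 3.20, 3.27, 2.85 and 3.23 RPKM (log2 difference 2.31 ± 0.15 SE, limma adjusted p = 8.15e-07), and at 57.8 and 17.3 RPKM on average in unstressed cells. Toward non-B cells the 3 largest were beta-defensin genes. Defb40 was at 29.9, 23.7, 39.9 and 26.6 RPKM in the non-B samples and listed at 0 in 3 of the 4 B samples. Defb37 (23.7, 13.2, 30.2 and 18.0 RPKM) and Defb38 (20.05, 10.3, 26.2 and 17.7 RPKM) were listed at 0 in all 4 B samples.

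The macrophage markers split within their list. Of 11, 5 were higher in every B than in every non-B sample. C1qa, a complement component made by tissue macrophages, was at 103, 84.3, 84.8 and 77.5 RPKM in the B and 37.9, 63.0, 54.1 and 46.4 RPKM in the non-B samples. Vcam1, an adhesion molecule of splenic red pulp macrophages, was at 95.5, 84.0, 75.9 and 60.7 RPKM in the B and 32.8, 57.0, 50.4 and 45.5 RPKM in the non-B samples. In contrast, 2 of the 11 were higher in every non-B sample.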
